A study of Mus musculus with 2 samples.

Results

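The genes described here encode tumour necrosis factor (TNF), receptors of the TNF superfamily and the proteins that relay or restrain their signal in the liver after kidney injury. The set was chosen by gene symbol: all probe sets that the platform annotation assigns to Tnf, Tnfaip2, Tnfaip3, Tnfrsf1a, Tnfrsf1b, Tnfrsf12a, Fas, Traf2, Birc3 or Tnip1. All 10 genes were on the array, with 16 probe sets, among 18193 genes named by a single symbol. The AKI group was 8-week-old female wild-type C57BL/6 mice that had 30 min of warm ischemia of both kidneys and then reperfusion, a model of acute kidney injury (AKI). The sham group was female wild-type C57BL/6 mice of the same age with a sham operation. Livers were taken 24 h later, frozen liver of 3 mice was pooled in each group, and each pool was measured on 1 Affymetrix array.

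With 1 array per group there is no test and no p-value, and the spread between mice was not measured. The words higher and lower refer to these 2 pools. A difference is log2(signal + 71.8) of AKI less that of sham, so changes of weak genes come out too small. Signals are the authors' scaled intensities. Each gene is represented by its probe set of highest mean level, and it passed the level filter when this probe set reached the array's median on at least 1 array, 231.8 for AKI and 225.7 for sham. The only repeat measurement is another probe set of the same gene. For 5149 genes 2 or more probe sets passed, and the SD of their differences within genes was 0.70. Splitting these genes into 4 level classes, it ran from 0.82 (weakest) to 0.63 (strongest). All 10 hepatocyte marker genes passed the filter, with summed signals of 584596 in the AKI pool and 632088 in the sham pool. Their median difference was -0.35, only 2 of the 10 were above 0, and all 10 were under 2-fold. In a bulk sample, fewer cells of a type and less RNA per cell cannot be told apart.

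TNF is a cytokine made mainly by macrophages. It binds TNF receptor 1, which most cells carry, and TNF receptor 2, which is found mostly on leukocytes and endothelium. Receptor 1 gathers the adaptor TRADD, the scaffold TRAF2 and the ubiquitin ligases cIAP1 and cIAP2, which leads to NF-kB and JNK activation, whereas a second complex with FADD and caspase-8 can kill the cell. NF-kB in turn induces A20 and its partner ABIN-1, which shut the pathway down. In hepatocytes, both survival and death after TNF or Fas ligand are known to depend on this balance.

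In the AKI pool, 9 of the 10 genes passed the level filter, and the difference of each of these 9 was above 0. Of them, 3 were at least 2-fold higher, Tnfaip3, Tnfrsf12a and Tnfrsf1b, against a background of 10.4% of all 13128 genes past the filter. Only Tnfaip3 and Tnfrsf12a were at least 4-fold higher, as were 2.09% of all genes, and both were also past 8-fold, as were 0.548% of all genes. None of the 9 was at least 2-fold lower, where the background was 12.5%. The median difference of the 9 was 0.71, and over all 10 genes it was 0.64, against -0.02 over all genes past the filter. Without Tnfaip3 and Tnfrsf12a the median of the other 7 was 0.56. Counted by probe set, 7 of the 15 past the filter were at least 2-fold higher (12% of all probe sets were) and 1 was at least 2-fold lower (13.3% were). Across all genes past the filter, 48.9% had a difference above 0.

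**Figure D1:**
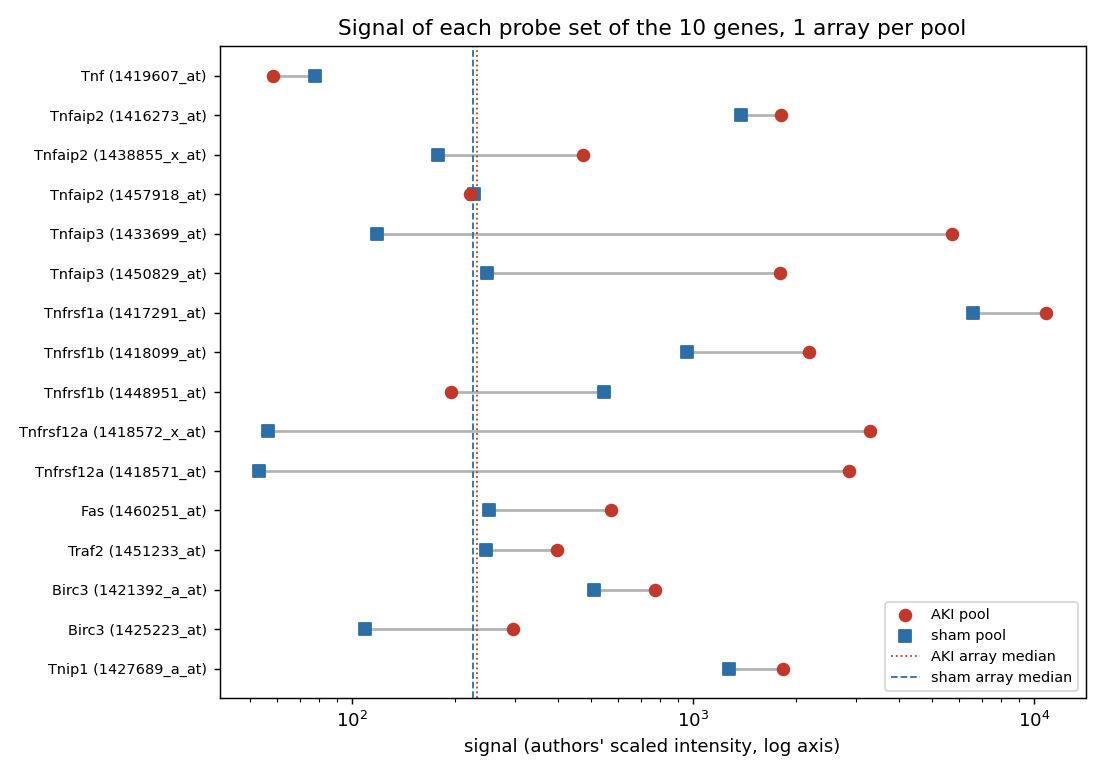
Signal of each of the 16 probe sets on the AKI array (red circles) and the sham array (blue squares), on a log axis, with the median of each array as a vertical line. The widest gaps are those of Tnfaip3 and Tnfrsf12a, 1 probe set of Tnfrsf1b runs the other way from its partner, and Tnf lies below both medians.

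Promoters are shown for Tnfaip3 and Tnfrsf12a, which had the largest differences, and for Tnip1 and Fas, whose windows hold a match. The sequences are from RefSeq, build GRCm38.p6, and give the 250 bases before each annotated start, 5′ to 3′ on the gene's strand. Capitals mark matches on either strand to GGGNNNTTCC, a kB-like motif of the kind NF-kB binds, or to TGANTCA, an AP-1-like motif of the kind JUN and FOS proteins bind.
Tnfaip3, upstream start, chr10:19015411-19015660, minus strand: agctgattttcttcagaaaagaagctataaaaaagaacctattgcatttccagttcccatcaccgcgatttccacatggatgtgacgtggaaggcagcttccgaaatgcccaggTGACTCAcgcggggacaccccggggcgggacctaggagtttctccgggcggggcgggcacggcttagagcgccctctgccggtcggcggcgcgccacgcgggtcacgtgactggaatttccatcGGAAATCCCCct
Tnfaip3, downstream start, chr10:19011964-19012213, minus strand: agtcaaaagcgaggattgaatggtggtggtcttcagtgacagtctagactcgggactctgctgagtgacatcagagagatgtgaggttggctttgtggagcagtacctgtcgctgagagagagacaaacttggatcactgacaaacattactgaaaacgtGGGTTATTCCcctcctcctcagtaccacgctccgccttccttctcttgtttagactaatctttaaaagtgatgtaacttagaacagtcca
Tnip1, chr11:54962941-54963190, minus strand: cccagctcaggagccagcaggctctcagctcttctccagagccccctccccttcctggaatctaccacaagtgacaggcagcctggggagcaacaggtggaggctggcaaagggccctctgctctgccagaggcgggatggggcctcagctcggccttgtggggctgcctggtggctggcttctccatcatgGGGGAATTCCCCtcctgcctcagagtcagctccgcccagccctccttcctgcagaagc
Fas, chr19:34290409-34290658, plus strand: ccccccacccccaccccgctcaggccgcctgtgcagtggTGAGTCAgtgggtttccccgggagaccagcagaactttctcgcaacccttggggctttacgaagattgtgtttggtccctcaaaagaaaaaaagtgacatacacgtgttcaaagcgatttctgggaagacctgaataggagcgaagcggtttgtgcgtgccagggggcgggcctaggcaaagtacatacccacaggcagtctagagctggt
Tnfrsf12a, chr17:23677450-23677699, minus strand: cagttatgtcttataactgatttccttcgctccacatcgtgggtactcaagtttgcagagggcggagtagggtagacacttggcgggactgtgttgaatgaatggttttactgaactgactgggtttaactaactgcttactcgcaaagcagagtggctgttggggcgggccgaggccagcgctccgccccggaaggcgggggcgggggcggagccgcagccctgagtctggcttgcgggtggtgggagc

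All 10 genes were found in the promoter table, with 11 starts, since Tnfaip3 has 2. In the upstream start of Tnfaip3, an AP-1-like match spans bases -136 to -130 and a kB-like match on the other strand spans -12 to -3. The window of the downstream start holds a kB-like match at -90 to -81. In Tnip1, 2 matches overlap, at -58 to -49 and, on the other strand, at -56 to -47. Fas holds an AP-1-like match at -211 to -205. Over the same length, a kB-like match was found in 3 of the 11 promoters, against 4.65% of all 32851. An AP-1-like match was found in 2 of the 11, against 6.75% of all promoters. By gene, each motif was found in 2 of the 10, against 5.31% of all genes for the kB-like and 7.82% for the AP-1-like motif. Tnfrsf12a and the other 6 genes hold no match to these letters in this window. A match describes the sequence and is not a shown binding site.

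**Figure D2:**
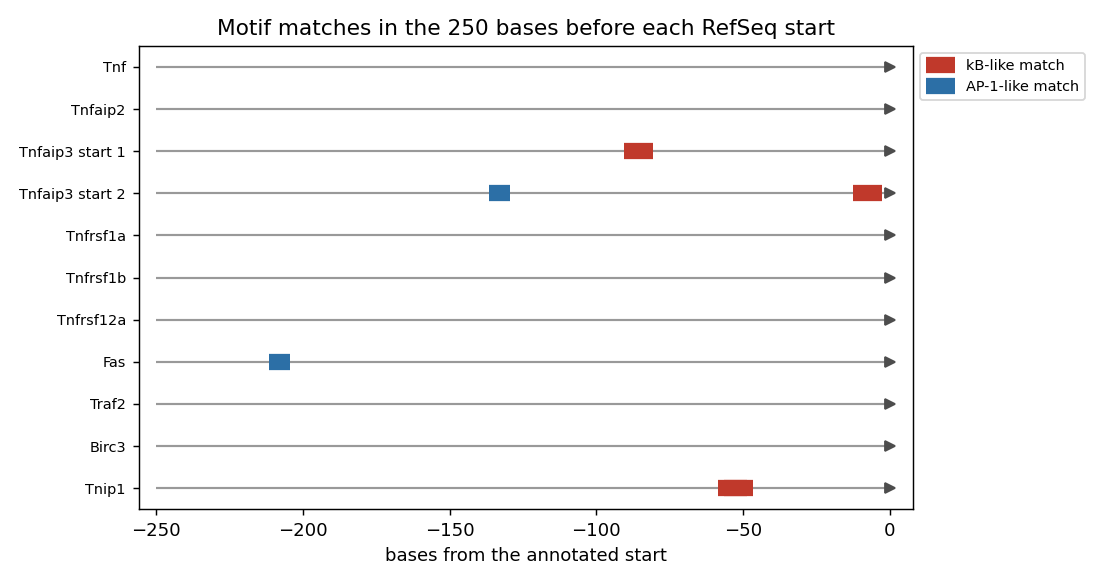
Positions of kB-like (red) and AP-1-like (blue) matches in the 250 bases before each of the 11 RefSeq starts, in bases from the start, which is marked by an arrowhead. Matches lie in both Tnfaip3 windows, in Tnip1 and in Fas, and the other windows are empty.

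Among the ligands, the signal of Tnf itself was 58.5 in the AKI pool and 77.9 in the sham pool. Its single probe set lay below the median on both arrays, so it did not pass the level filter and no fold is given. Earlier times were not sampled. The other ligand genes of the superfamily were 17, of which 13 were named on the arrays and 8 passed the filter. Their median difference was 0.37. Of the 8, 1 was at least 2-fold higher and 1 lower, against 10.4% and 12.5% of all genes. Tnfsf9, the gene of the 4-1BB ligand that costimulates T cells, was higher (1.04) with signals of 455.4 in the AKI pool and 184.1 in the sham pool. Tnfsf4, the gene of the OX40 ligand, was lower (-1.65) with signals of 121.6 and 534.5 in the AKI and sham pools. The gene of Fas ligand, Fasl, had a difference of 0.78 on its main probe set and -0.22 on its other one. Fasl was named after its values were seen, as the ligand of a member.

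Among the receptors, Tnfrsf12a had the largest ratio of signals. It encodes Fn14, a small receptor for the cytokine TWEAK that is known to be induced in injured and regenerating tissue and that signals through TRAF proteins. Its main probe set had a signal of 3293.2 in the AKI pool and 56.6 in the sham pool, a difference of 4.71. The other probe set had signals of 2853.9 and 53.2 in the AKI and sham pools, a difference of 4.55. The main probe set ends in _x_at and may match other transcripts, whereas the other has no such suffix. Both sham signals lay below the array's median and both AKI signals far above it. With the sham signals set to the sham median, the ratios of AKI over sham were 14.6 and 12.6, against 58.2 and 53.6 as measured. Of 13128 genes, 16 had a difference at least as large as that of Tnfrsf12a, itself included. The TWEAK gene, Tnfsf12, shares its probe sets with neighbouring genes in the annotation and was not analysed here.

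Tnfrsf1a encodes TNF receptor 1, which carries a death domain. Its only probe set had a signal of 10828.3 in the AKI pool and 6597.9 in the sham pool. The difference of 0.71 is about as large as the SD between probe sets of a gene, and 16.6% of all genes past the filter had a difference at least as large. Tnfrsf1a was therefore well above the median on both arrays, with a difference that has no repeat measurement. The SD between probe sets is not the error of a single probe set, which was not measured.

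Tnfrsf1b encodes TNF receptor 2, which lacks a death domain and binds TRAF2 directly. Its probe sets went in opposite directions. The main one had signals of 2189.2 in the AKI pool and 958.8 in the sham pool, a difference of 1.13. The other had 194.1 in the AKI pool and 548.1 in the sham pool, a difference of -1.22, so their mean was -0.044. Of the 5149 genes with several probe sets past the filter, 105, or 2.04%, likewise had 1 probe set past 2-fold in each direction. The direction for Tnfrsf1b is thus not settled by these arrays, and it was no longer at least 2-fold higher with the mean of its probe sets or, at 0.93, with centring on reference genes.

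Fas, the death receptor that kills hepatocytes when its ligand binds, had a signal of 572.7 in the AKI pool and 251.4 in the sham pool. The ratio of the signals was 2.28, and the difference was 0.996, just under the 2-fold threshold because of the added 71.8. With a pseudocount of 1 it was 1.18. Fas has 1 probe set, so agreement could not be checked.

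The other receptor genes of the superfamily as a group were at about 0. Of 24 listed, 23 were named on the arrays and 14 passed the filter, with a median of -0.03. Of the 14, 2 were at least 2-fold higher and 3 lower, against 10.4% and 12.5% of all genes. At least 2-fold higher were Tnfrsf23 (1.72), which encodes a mouse decoy receptor for the ligand TRAIL, and Edar (1.21), the ectodysplasin receptor gene. The signals of Edar were weak at 240.3 in the AKI pool and 63.4 in the sham pool. For Tnfrsf23 the sham signal was 147.9, below the array's median, against 650.1 in the AKI pool. At least 2-fold lower were Tnfrsf13b (-1.60), Tnfrsf17 (-1.60) and Ngfr (-1.12). The products of Tnfrsf13b and Tnfrsf17 are receptors of B cells and plasma cells for the cytokines BAFF and APRIL, and Ngfr encodes a neurotrophin receptor. The AKI signals of all these lower genes were weak, from 33.2 for Tnfrsf13b to 164.8 for Ngfr.

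**Figure D3:**
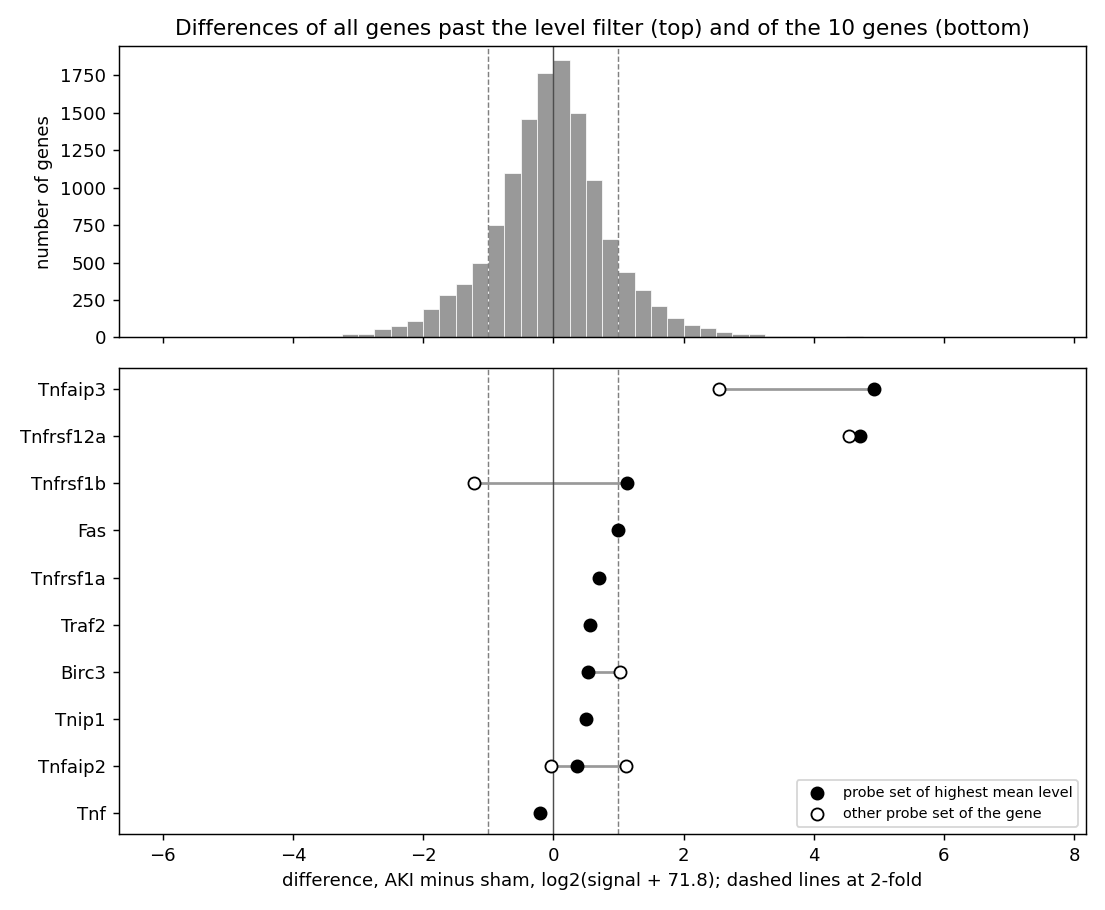
Number of genes by difference for the 13128 genes past the level filter (top) and the difference of every probe set of the 10 genes (bottom), both as log2(signal + 71.8), AKI less sham. Filled points are the probe sets of highest mean level, open points the others, and dashed lines mark 2-fold. Tnfaip3 and Tnfrsf12a lie in the far right tail, and the probe sets of Tnfrsf1b fall on either side of 0.

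Among the adaptors and ligases of the 10 genes, the main probe sets of Traf2 and Birc3 were both under 2-fold. Traf2, the scaffold that brings the ubiquitin ligases to the receptors, had a signal of 397.4 in the AKI pool and 246.1 in the sham pool, a difference of 0.56. Birc3 encodes cIAP2, a ubiquitin ligase that is itself an NF-kB target. Its main probe set had signals of 771.7 in the AKI pool and 511.4 in the sham pool (0.53). Its other probe set had 295.3 in the AKI pool and 108.8 in the sham pool (1.02). Both Birc3 probe sets were higher in the AKI pool, but the size differed between them and the second was below the sham median. Without probe sets ending _s_at, _x_at or _a_at, Birc3 was represented by the second one and passed 2-fold.

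Of 27 other adaptors, ubiquitin enzymes and death effectors of the receptor complex, 24 were named on the arrays and 21 passed the filter. Their median was -0.05, with 6 of the 21 past 2-fold upward, against 10.4% of all genes, and 1 downward, against 12.5%. The largest difference was that of Casp8 (2.79), the initiator caspase of the death receptors, with signals of 7247.3 in the AKI pool and 988.3 in the sham pool on its only probe set. Tnip2 (1.88), whose product ABIN-2 binds A20, and Tank (1.81), which encodes a TRAF-binding adaptor, were higher as well. Their sham signals, 153.2 for Tnip2 and 118.7 for Tank, lay below the array's median. The AKI signals were 755.4 for Tnip2 and 594.5 for Tank. Another probe set of Tank was at 0.37. Traf4 was lower (-2.57), though its other probe set was at 0.86. Birc2, the gene of cIAP1 and the nearest relative of Birc3 in the list, was at 1.59 and was singled out after its values were seen. Fadd (-0.10), the adaptor between Fas and caspase-8, was also named for its role after its values were seen, and differed by less than the SD between probe sets.

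Among the genes that TNF induces and that restrain it, Tnfaip3 stood far apart. It encodes A20, a ubiquitin-editing enzyme that ends NF-kB signalling from TNF receptor 1. Its main probe set had a signal of 5722.4 in the AKI pool and 118.2 in the sham pool, a difference of 4.93. The other had 1799.5 in the AKI pool and 248.9 in the sham pool, a difference of 2.54. Both were past 4-fold, but the second gave a ratio of signals of 7.23 where the first gave 48.4. With the sham signal of the first set to the sham median its ratio was 25.4. Of 271 genes with several probe sets past the filter, at least 1 of them 4-fold higher, 34 had all probe sets past 4-fold, or 12.5%, and Tnfaip3 and Tnfrsf12a are both among these. The 271 were chosen by a high probe set. The main probe set of Tnfaip3 and both of Tnfrsf12a reached the median on the AKI array only. The count thus describes agreement between probe sets and is no support for either gene.

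Tnip1 encodes ABIN-1, the adaptor that brings A20 to ubiquitin chains. It had a signal of 1833.9 in the AKI pool and 1275.2 in the sham pool, a difference of 0.50. Its single probe set ends in _a_at. Tnfaip2, a gene first found by its induction by TNF in endothelium, had 3 probe sets. The main one had 1806.0 in the AKI pool and 1380.4 in the sham pool (0.37), the next had 474.4 and 178.9 in the AKI and sham pools (1.12), and the last had 220.7 and 227.8 (-0.03). The levels of Tnip1 and Tnfaip2 thus differed between the pools by less than the SD between probe sets, apart from 1 probe set of Tnfaip2, which ends in _x_at and may match other transcripts. Of 6 other genes of the TNFAIP naming series, 5 were named on the arrays and 3 passed the filter. Of the 3, Tnfaip8l2 (-1.31) and Tnfaip8l1 (-1.02) were at least 2-fold lower, against 12.5% of all genes.

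The genes of the wider pathway were counted in 9 lists. Of their 146 entries, 130 were named on the arrays and 106 passed the filter. Of the 106, 31 were at least 2-fold higher, or 29.2%, against 10.4% of all genes. At least 2-fold lower were 11, or 10.4%, against 12.5% of all genes. The median was 0.36. The lists were put together with earlier results of these data known, so the counts describe these genes and support nothing about the pathway.

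**Figure D4:**
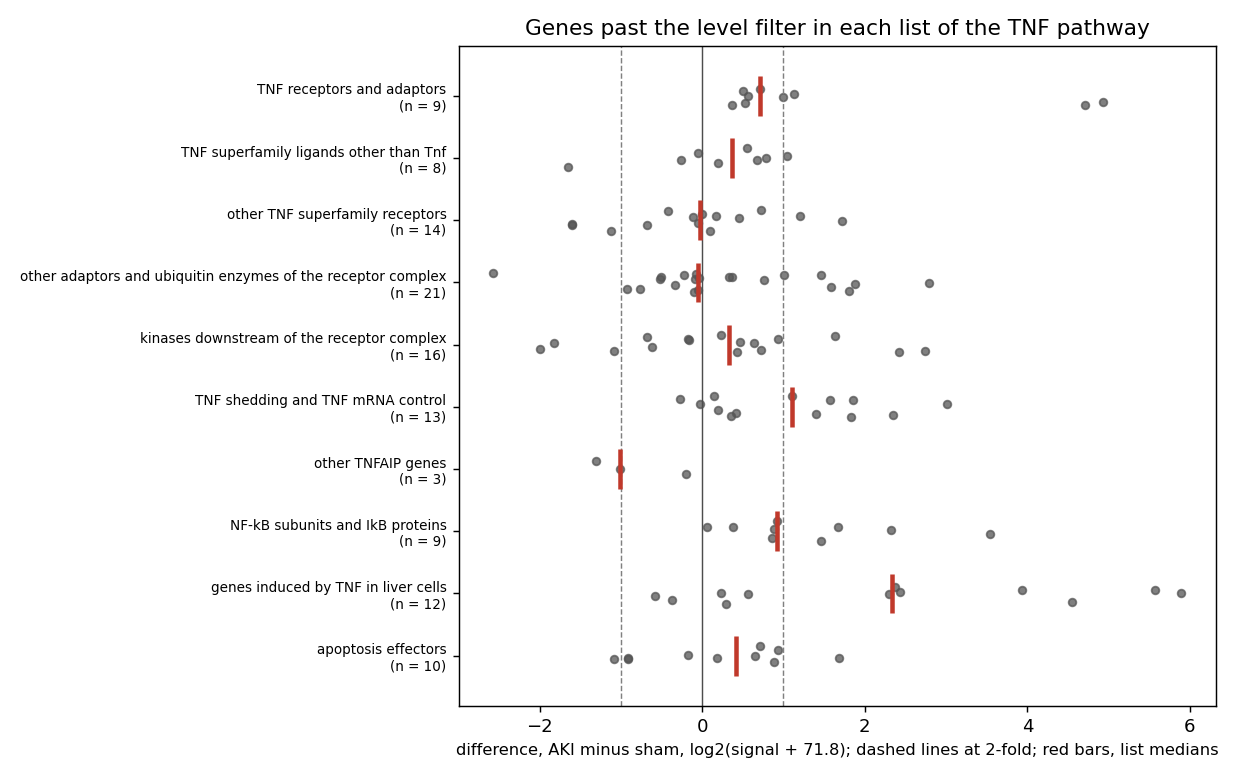
Difference of each gene past the level filter in the 10 genes and in 9 lists of the TNF pathway, as log2(signal + 71.8), AKI less sham. Each point is a gene, red bars are list medians and dashed lines mark 2-fold. Genes induced by TNF have a median of 2.34 here, against 0.66 without the level filter, and the other TNFAIP genes -1.02, against -0.20.

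A further list held genes of TNF shedding and of factors that act on the TNF gene or its mRNA. All 13 passed the filter, and 7 of them were past 2-fold upward, against 10.4% of all genes, and 0 downward, against 12.5%. Their median was 1.11, and 0.69 with the mean of the probe sets. Rhbdf2, whose product iRhom2 brings the TNF-cleaving protease to the cell surface, was highest (3.02), with signals of 1485.5 in the AKI pool and 120.5 in the sham pool. The protease gene itself, Adam17, was at 0.14. Zfp36 (1.86) and Zfp36l2 (1.83) encode proteins that bind AU-rich mRNAs and speed their decay, TNF mRNA being the classic target of the first. A further probe set of Zfp36l2 was at -0.98. Litaf (2.35), whose product was first described as a factor that acts on the TNF promoter, had signals of 14579.5 in the AKI pool and 2811.0 in the sham pool. Adam17 was named for its role after its values were seen.

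In the kinase list, 16 of 18 genes were named and all 16 passed the filter, with a median of 0.33. At least 2-fold higher were 3, against 10.4% of all genes, and at least 2-fold lower were 3, against 12.5%. Map3k8 (2.74), the gene of the kinase TPL2, and Mapkapk2 (2.42), the gene of a p38 target kinase that stabilises TNF mRNA, were highest. Tab1 (-2.00), whose product activates the kinase TAK1, and Map2k6 (-1.82), a p38 activator, were lowest. Another probe set of Tab1 was at -0.03. The sham signal of Map3k8 was 20.8, far below the median, against 546.3 in the AKI pool.

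Of 10 genes of NF-kB subunits and their inhibitors, 9 were named on the arrays and passed the filter. These 9 were above 0 with the authors' scaling, where the least, Rel (0.06), would fall below 0 once centred on reference genes. Over these 9 genes the median was 0.92, and 4 were past 2-fold upward (10.4% of all genes were) and 0 downward (12.5% were). Nfkbiz (3.55), an atypical nuclear IkB, Relb (2.32), a subunit of the slower pathway, and the inhibitors Nfkbia (1.67) and Nfkbib (1.46) were the 4. The sham signal of Relb was 43.7, below the array's median, against 506.9 in the AKI pool. The 5 probe sets of Nfkbia spanned 0.59 to 2.35, and those of Nfkbiz 0.35 to 3.55. Of 16 genes that TNF is known to induce in liver cells, 15 were named on the arrays and 12 passed the filter. Their median was 2.34, with 7 of the 12 at least 2-fold higher and 0 lower, against 10.4% and 12.5% of all genes. Without the level filter this median was 0.66, and without probe sets ending _s_at, _x_at or _a_at it was 1.43. Lcn2 (5.89), Cxcl2 (5.57), Ier3 (4.54) and Cxcl1 (3.94) led, and all of these also respond to interleukin-1, interleukin-6 or other stimuli. The sham signals of Cxcl2 and Ier3, 119.3 and 202.3, lay below the array's median. The genes of apoptosis effectors had a median of 0.41 over 10 genes. Of these the survival gene Mcl1 (1.68) was at least 2-fold higher and Dffa (-1.09), the gene of a DNase inhibitor, at least 2-fold lower. Probe sets of both went in either direction, -0.06 to 1.68 for Mcl1 and -1.09 to 0.42 for Dffa. Each count was 1 of the 10 genes, near the shares over all genes of 10.4% higher and 12.5% lower.

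Markers of other liver cell types also differed between the pools. For the counts below, 10.4% of all genes past the filter were at least 2-fold higher and 12.5% lower. Of 8 neutrophil markers named on the arrays, 6 passed the filter and 3 of these were at least 2-fold higher. The summed signal of all 8 was 7068.3 in the AKI pool and 2366.2 in the sham pool. The 3 were S100a8 (3.17), S100a9 (2.72) and Ngp (1.12). The sham signals of S100a8 and S100a9, 161.4 and 191.2, lay below the array's median. Also past the filter, Mpo (-0.03) was not higher, and Mmp8 (0.31) and Elane (0.76) were under 2-fold. Cxcr2 (-0.34) and Camp (0.37) did not pass the filter. The summed signal of 12 Kupffer cell and macrophage markers was 11390.2 in the AKI pool and 17820.9 in the sham pool, with 3 at least 2-fold lower, Clec4f (-1.37), Cd5l (-1.24) and C1qa (-1.01), and 1 higher, Marco (1.46). For 10 sinusoidal endothelial markers the sums were 9890.0 and 13137.1 in the AKI and sham pools, with Clec4g (-2.08), Oit3 (-1.86) and Stab1 (-1.55) lower and Lyve1 (1.79) higher. Of markers past the filter, 1 of 4 for T and NK cells and 1 of 2 for cholangiocytes were at least 2-fold higher, 1 of 9 for stellate cells was lower, and 0 of 6 for B cells passed 2-fold. The markers named here were picked after their values were seen. Tnfrsf1b, Fas and Tnfaip2 are also known in leukocytes or endothelium, and the part of these cells in the differences was not tested.

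The count of genes past 2-fold depended on how the arrays were scaled to each other. With centring on 9 hybridization control probe sets, 5 of the 10 genes were at least 2-fold higher, with Tnfrsf1a (1.03) and Fas (1.32) added, where the background was 17.6% of all genes. With centring on 10 reference genes only Tnfaip3 and Tnfrsf12a were, where it was 7.64%. These centrings moved the median of all genes by 0.32 and -0.20. They put 2306 genes higher and 1036 lower, or 1003 higher and 2217 lower, against 1370 and 1635 with the authors' scaling. Tnfaip3 and Tnfrsf12a stayed past 4-fold under each of the 11 alternatives.

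**Figure D5:**
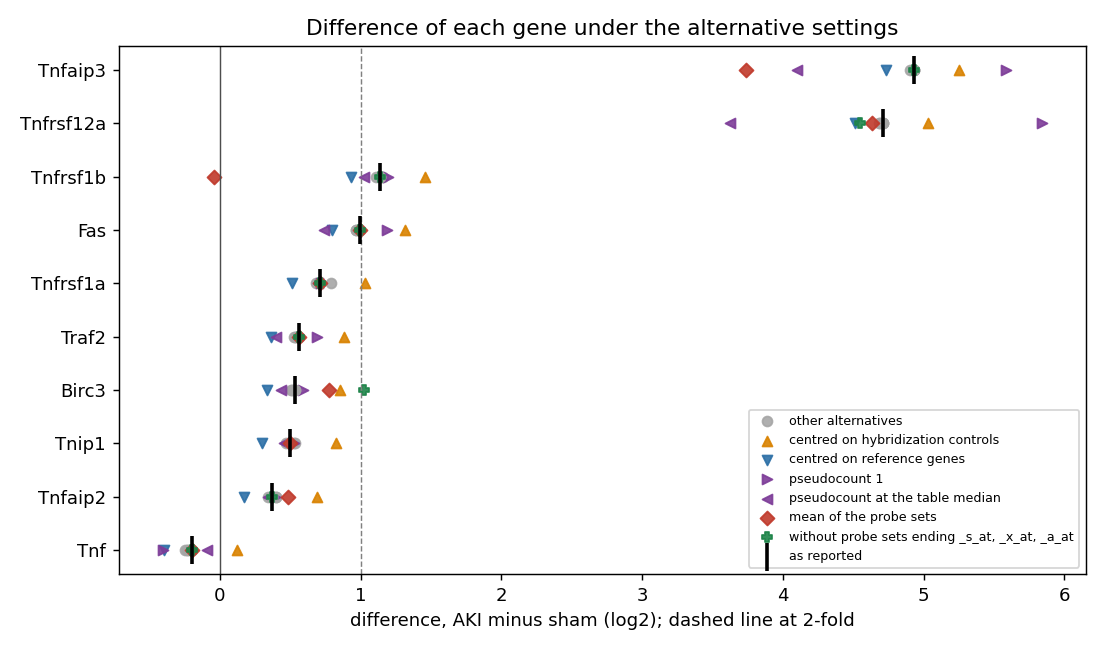
Difference of each gene, AKI minus sham on a log2 scale, as reported (black bars) and under the 11 alternative settings (symbols). Tnfaip3 lies between 3.74 and 5.59 and Tnfrsf12a between 3.63 and 5.84 under every one, Tnfrsf1b falls to about 0 with the mean of its probe sets, and Tnf lies above 0 only with centring on hybridization controls.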

How the data were processed

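Liver RNA from 1 pool of 3 mice per group was measured on 1 Affymetrix array per group, with biotinylated cRNA made from 8 ug of total RNA per the labels' protocols. The authors deposited a linear signal intensity per probe set. Which software made the intensity values is not given in the sources. On both arrays the mean intensity after trimming 2% of probe sets at each end was 500.00, so the deposited values had been scaled to a common target, which removes any difference in total mRNA.

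The table holds 45101 probe sets with 64 controls. Without controls, 34945 had 1 gene symbol in the platform annotation, 932 several and 9160 none. Symbols were compared with RefSeq (GRCm38.p6) through Entrez numbers, which matched 34741 and altered 0. The pseudocount of 71.8 is the 25th percentile of all values. The choice of probe set, the level filter and the fold thresholds of 2 and 4 are given with the results. The genes and lists were chosen with earlier results of these data known. All 10 genes were named with every probe set, then from each pathway list the genes past 2-fold (if 5 or fewer) or the 4 of largest absolute difference, and exceptions are marked. With 2 arrays no likeness of pattern between genes can be measured. The alternatives were 11, on scaling (median, quantile, lowess with fraction 0.3, controls, reference genes), pseudocount (1 or 228.7), filter (none or the 75th percentile), the mean of probe sets, and leaving out probe sets ending _s_at, _x_at or _a_at. The number of arrays limits the precision. The computation was tested on simulated data. Computations used numpy 2.4.6, pandas 2.3.3 and statsmodels 0.14.6 in Python 3.11.15, trimmed means scipy 1.17.1 and figures matplotlib 3.10.9.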

Additional observations from a re-analysis of the deposited data

How the results depend on the processing

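No paired analysis was possible because each group has 1 array. For the same reason no replicate could be left out. The number of the 10 genes at least 2-fold higher was 3 as reported, where 10.4% of all genes were. It was 5 with centring on hybridization controls (17.6% of all genes). A pseudocount of 1 gave 4 (12.5%), as did leaving out probe sets of the 3 suffixes (10.5%). Centring on reference genes gave 2 (7.64%), as did the mean of the probe sets (7.68%). The count at least 4-fold higher was 2 under each of the 11 alternatives, and 2.09% of all genes were as reported. The difference of Tnfrsf1b turned to -0.044 with the mean of its probe sets. In the pathway lists, 11 genes were at least 2-fold lower as reported, where 12.5% of all genes were. There were 6 with centring on hybridization controls (7.89% of all genes) and 5 with a pseudocount at the table median (8.09%). With the level filter at the 75th percentile there were 5 (13.8% of the 8205 genes past it), and 7 with the mean of the probe sets (9.69%). The cause of these changes was not tested. With the mean of the probe sets the list medians of ligands, kinases and apoptosis effectors were 0.035, 0.098 and 0.11. The median of the other TNFAIP genes was -1.02 as reported and -0.20 without the level filter. The median of genes induced by TNF was 2.34 as reported, 0.66 without the level filter and 1.43 without probe sets ending _s_at, _x_at or _a_at. Tnip1 could not be given a value in the last setting, since its only probe set was left out. The number of genes with a kB-like match was 2 in 250 bases and 3 in a window of 300 that runs past the start, an alternative added after seeing the data. Weak signals limit the exact ratio for Tnfrsf12a and Tnfaip3, whose main sham signals lie below the array's median.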
